A study of Homo sapiens with 30 samples.

Results

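Spliceosome and hnRNP genes were taken by name: every gene called SRSF, HNRNP, SF3A or SF3B, SNRP, PRPF or LSM. The deposited values named 59 such genes, and 52 of them reached an FPKM (fragments counted per kilobase of transcript and scaled to the mapped total) of at least 1 in at least 3 of 30 libraries. They were 52 of the 8531 genes that passed this filter. Where a name had several rows, the row with the highest mean was used. Other genes of these families, such as HNRNPA1, HNRNPK, SF3B1 and SF3B2, were not among the 59 names. Counts by family therefore do not cover whole families. The 52 comprise 13 HNRNP, 10 SNRP, 10 PRPF, 7 SF3A or SF3B, 7 LSM and 5 SRSF genes. Of these, HNRNPA1P10, HNRNPA1P33 and HNRNPA3P1 are pseudogenes, processed copies of other hnRNP genes, and HNRNPCL1 is a near-copy of HNRNPC. Values of these 4 are uncertain because 50 bp reads may be shared with the parent genes, and 48 members remain without them.

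BEAS-2B, an established human bronchial epithelial cell line, was exposed on a rocker for 30 min and harvested 2 h or 24 h afterwards. The 5 arms were an internal control (IC), charcoal burnt with no shisha (C, charcoal alone), charcoal under shisha without tobacco (CNT, herbal shisha), charcoal under tobacco shisha (CT, tobacco on charcoal) and an electric heater under tobacco shisha (ET, tobacco on the heater). Every arm had 3 wells at either time, so 10 groups and 30 RNA libraries. Doses were the highest that released no LDH (a marker of damaged cells) at 24 h. The sources used here do not say how control wells were handled or whether wells were separate cultures, so the p-values measure the spread between wells, which may be technical.

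Introns are removed from pre-mRNA by the spliceosome, which is built from small nuclear ribonucleoproteins (snRNPs). Sm proteins, mostly encoded by SNRP genes, form the ring around the U1, U2, U4 and U5 RNAs, and LSM proteins form the ring around U6. The SF3A and SF3B complexes hold the U2 snRNP on the branch point, and PRPF proteins include parts of the U4/U6.U5 tri-snRNP and helpers of the catalytic steps. SR proteins (SRSF) mostly promote the use of exons they bind, while hnRNP proteins coat nascent RNA and often repress splice sites, besides acting in RNA stability and export. Transcripts of many SR and hnRNP genes carry exons that send the RNA to decay, by which these proteins regulate their own amounts.

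The libraries were alike in size: FPKM values summed to between 199985 and 220259, between 7598 and 7944 genes were at 1 or above, and wells of a group correlated at r = 0.983 or more across genes. Read depth is unknown, since the files hold FPKM and no counts. Against the labelled cell type, KRT8, KRT18 and KRT19 passed the filter and KRT5, KRT14, EPCAM and CDH1 were below 1 in every library, while 6 of 7 mesenchymal markers passed (VIM, CDH2, COL1A1, COL1A2, PDGFRB and THY1). No endothelial, red blood cell, ciliated or secretory marker passed, and 2 of 6 immune markers did (CD14 and CD68). Changes are given as log2 of FPKM plus 1, which understates the change of genes with low values, from a limma model over all 30 libraries with p-values adjusted over 8531 genes. A gene was called changed at an adjusted p below 0.05. In bulk RNA, fewer cells of a type and less RNA per cell cannot be told apart.

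RefSeq promoter windows on GRCh38.p14 were found for 42 of the 52 members. Within these 300 bases (250 before and 50 after the start), CCGGAAG, the core bound by ETS factors, was present on either strand in 19 of 42 members (45.2%), in 19.7% of the 6267 windows of genes past the filter and in 10.7% of all 27305 windows. CCAAT was present in 45.2%, 36.7% and 35.7%, the TATA box TATAAA in 11.9%, 5.2% and 12%, the GC box GGGCGG in 64.3%, 72.0% and 44.6%, and the E-box CACGTG in 11.9%, 9.86% and 7.43%. The cyclic AMP response element TGACGTCA and the NRF1 motif by name were in 0 of 42 windows. TGACTCA, the AP-1 motif, was in 1 of 42 windows (SF3A2), as was the ZBTB33 motif by name (LSM3). The median GC content was 60.7% for members and 65.7% for genes past the filter. Among the 7 SF3A and SF3B genes, CCGGAAG was found in SF3A1, SF3A2, SF3A3, SF3B4 and SF3B6. None of the strings searched contains another. These matches are descriptions of letters and not of bound sites.

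The 250 bases before the start are printed 5′ to 3′ for 4 genes on which the results turn. SRSF3 (chr6:36594112-36594361, plus strand) rose in the shisha arms at both times, more so at 2 h. SNRPA1 (chr15:101295249-101295498, minus strand) rose in the tobacco arms at 24 h. SF3B4 (chr1:149927804-149928053, minus strand) rose in the shisha arms at 24 h and, less, on the heater at 2 h. HNRNPD (chr4:82373992-82374241, minus strand) fell in the tobacco arms at 24 h. Capitals mark matches to the TATA box, CCAAT, the ETS core and the E-box or their reverse complements, and the GC box is left in lower case. Of the marked strings, SRSF3 holds a TATA box and 2 CCAAT matches, SNRPA1 an ETS core and 1 CCAAT match, SF3B4 an ETS core alone, and HNRNPD a TATA box, an E-box and an ETS core. SF3B4 and HNRNPD also hold a GC box, left unmarked.
SRSF3: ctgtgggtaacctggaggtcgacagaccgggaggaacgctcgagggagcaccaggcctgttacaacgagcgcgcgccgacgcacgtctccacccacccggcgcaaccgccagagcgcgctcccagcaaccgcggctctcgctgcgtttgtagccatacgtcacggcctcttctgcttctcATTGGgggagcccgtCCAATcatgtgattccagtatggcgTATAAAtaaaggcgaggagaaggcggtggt
SNRPA1: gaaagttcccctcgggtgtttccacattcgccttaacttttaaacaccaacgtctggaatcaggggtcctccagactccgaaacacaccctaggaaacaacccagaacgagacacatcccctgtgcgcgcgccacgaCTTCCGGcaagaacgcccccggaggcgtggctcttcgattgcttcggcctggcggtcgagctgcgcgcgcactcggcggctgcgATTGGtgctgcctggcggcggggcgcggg
SF3B4: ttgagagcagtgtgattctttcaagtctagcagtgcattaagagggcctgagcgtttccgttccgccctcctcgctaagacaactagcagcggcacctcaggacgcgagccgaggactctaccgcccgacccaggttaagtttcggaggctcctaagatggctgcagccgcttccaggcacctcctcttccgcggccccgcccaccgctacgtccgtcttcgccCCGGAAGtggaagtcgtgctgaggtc
HNRNPD: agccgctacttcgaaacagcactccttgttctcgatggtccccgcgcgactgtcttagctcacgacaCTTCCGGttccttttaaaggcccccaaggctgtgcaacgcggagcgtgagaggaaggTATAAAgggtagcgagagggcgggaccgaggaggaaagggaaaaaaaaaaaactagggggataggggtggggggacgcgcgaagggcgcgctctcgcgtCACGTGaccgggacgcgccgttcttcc

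Members together held between 1.48% and 1.60% of the FPKM in each library, summed over 1 row per gene name. The most abundant by FPKM, which is per length, was SNRPB, the gene of Sm proteins B and B′, at 582 FPKM on average over the 30 libraries. SNRPD2 (150.5), HNRNPC (146), PRPF19 (124), the core of the Prp19 complex, SRSF3 (115), SF3B6 (109), the branch point protein p14, and LSM3 (82.1) were also among the high members; SNRPB, HNRNPC, PRPF19, SRSF3, SF3B6 and LSM3 had the highest means of their families. At the low end, PRPF40B averaged 0.653 and reached 1 in 5 libraries, and PRPF31 averaged 0.940 and reached 1 in 6. HNRNPCL1 was listed at 0 in 14 libraries and between 2.99 and 4.69 in the other 16. Of the 7 names that did not pass, SRSF12 ranged from 0.0555 to 0.216 and LSM2 was listed at 0 throughout, and HNRNPCL2, HNRNPCL3, HNRNPCL4, HNRNPKP3 and SNRPD2P2 make up the rest.

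Most members were steady between wells: the highest well of a group was typically 1.08 times the lowest, as the median over groups and members. Of the members above 0 in all wells of a group, 8 had at least 1 group in which the ratio was 1.5 or more. HNRNPA3, which encodes a relative of hnRNP A1, was the most variable, at 5.35, 5.39 and 29.6 FPKM in the wells of charcoal alone at 2 h and 4.39, 23.7 and 25 in those of tobacco on charcoal at 2 h. LSM4 stood at 89.2, 89.6 and 43.8 in the 24 h controls and 39, 40.1 and 93.7 after tobacco on charcoal at 24 h. The remaining genes were PRPF40B, SNRPD3, LSM6, SRSF1, PRPF39 and LSM11. HNRNPA3, LSM4, SNRPD3, SRSF1, PRPF40B and HNRNPCL1 were called in none of the comparisons made.

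**Figure D1:**
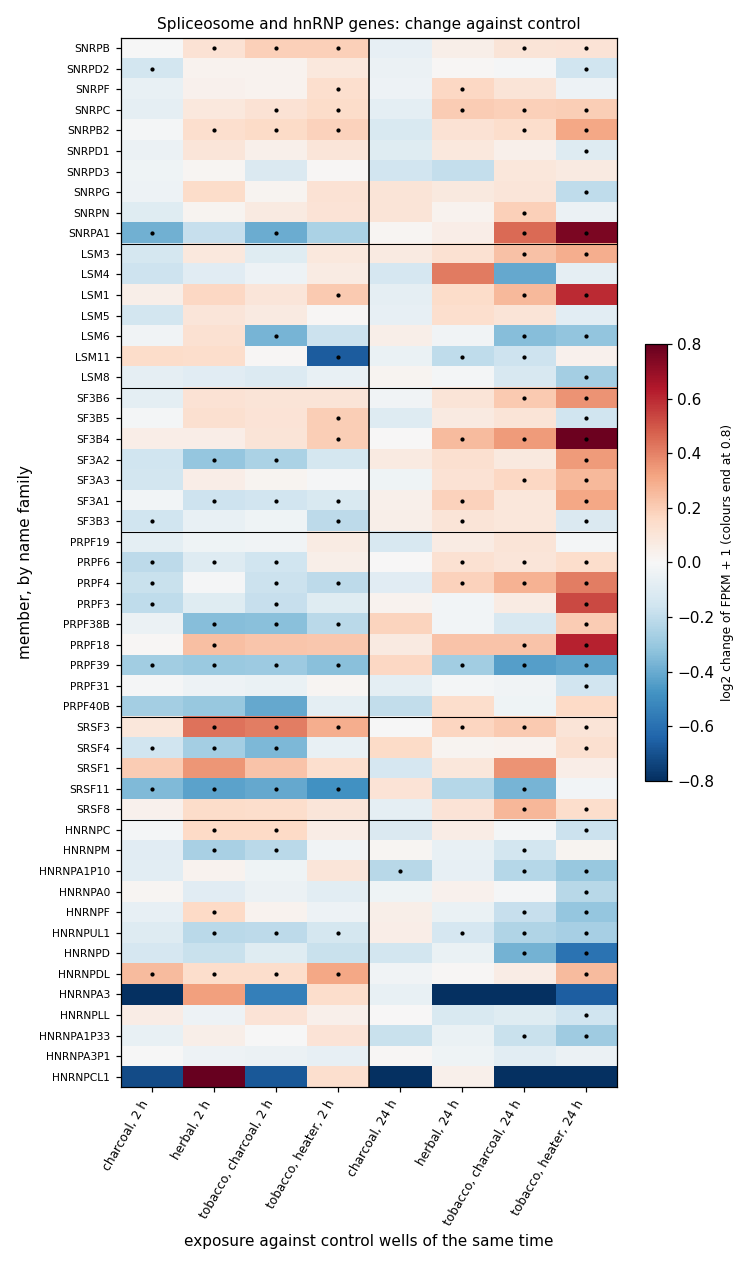
Change of 51 of the 52 members (rows, by name family and falling mean FPKM) in each exposure (columns) against the control wells of the same time, as log2 of FPKM plus 1; red is higher, blue lower, and dots mark an adjusted p below 0.05. The right-hand column, tobacco on the heater at 24 h, holds 37 dots and charcoal alone at 24 h holds 1.

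At 2 h, SRSF3 rose in the 3 shisha arms and SRSF11 fell in all 4 exposures, HNRNPDL rose in all 4, and most PRPF genes that were called fell. Charcoal alone called 11 of 52 (1 higher, 10 lower) with 24.4% of all genes called, 8.16% higher and 16.2% lower. Herbal shisha called 17 (7 higher, 10 lower; 38.2% of all genes called, 10.6% higher and 27.7% lower), tobacco on charcoal 20 (6 higher, 14 lower; 35.2% of all genes called, 8.5% higher and 26.7% lower) and tobacco on the heater 18 (9 higher, 9 lower; 34% of all genes called, 9.27% higher and 24.8% lower). Member shares in this fit lay near those of all genes in each arm. The 4 arms share their 3 control wells, so they are given side by side and not as separate evidence. Direction depended on scaling at this time. The median change of all genes was -0.08, -0.07, -0.08 and -0.04 in the same order, and after libraries were rescaled by median-of-ratios factors (0.951 to 1.07) the split after charcoal alone was 3 higher and 1 lower (11.2% and 8.06% of all genes). Rescaled, herbal shisha had 20 higher and 7 lower (19.1% and 19% of all genes), tobacco on charcoal 18 higher and 5 lower (17.2% and 17.7% of all genes) and tobacco on the heater 20 higher and 6 lower (16.8% and 19.7% of all genes). The rescaled shares of members called were 7.69%, 51.9%, 44.2% and 50%, with 19.3%, 38.1%, 34.9% and 36.5% of all genes, so below all genes after charcoal alone and above them in the shisha arms. For charcoal alone the count fell to 7 without control replicate 1 and to 6 without control replicate 3, and it was 20 when its own wells and the controls alone were fitted. Calls among all genes moved too, from 696 higher and 1385 lower with all libraries. They were 592 and 1005, 611 and 1026, and 856 and 2068 in these fits.

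SRSF3, a small SR protein that also carries spliced mRNA to export, stood at 99.9, 102 and 101 FPKM in the 2 h controls. It was at 137, 132 and 140.5 after herbal shisha, 133, 135 and 135 after tobacco on charcoal and 125, 128 and 117 after tobacco on the heater, so every exposed well lay above every control well. It rose by 0.44 ± 0.04 (SE, adjusted p = 1.66e-08), 0.41 and 0.29 in turn. After charcoal alone its wells were at 106, 106 and 110.5, also above the controls, but the difference of 0.09 ± 0.04 (SE, adjusted p = 0.104) did not pass, though it did after rescaling (0.18, adjusted p = 0.00426). SRSF11, an SR-related nuclear protein, was at 13.4, 13.3 and 11.6 FPKM in the controls. Its wells held 9.59, 10.2 and 9.62 after charcoal alone, 9.09, 10 and 8.66 after herbal shisha, 9.12, 7.9 and 11.4 after tobacco on charcoal and 8.01, 9.95 and 8.71 after tobacco on the heater. All of these lay below the controls. SRSF11 fell by 0.35 ± 0.11 (SE, adjusted p = 0.0222) after charcoal alone, 0.43 after herbal shisha, 0.41 after tobacco on charcoal and 0.48 on the heater. The call after charcoal alone was lost after rescaling (-0.27, adjusted p = 0.092) and without control replicate 1 or 2 or charcoal replicate 1 or 3 (adjusted p from 0.061 to 0.0827). That after tobacco on charcoal was lost without its replicate 2 (adjusted p = 0.0531). SRSF4, a larger SR protein, was at 33 ± 1.03 FPKM (SD, n = 3) in the controls and fell by 0.16 ± 0.05 (SE, adjusted p = 0.0267) after charcoal alone, 0.27 after herbal shisha and 0.36 after tobacco on charcoal, the first of these lost after rescaling (adjusted p = 0.338). On the heater its change was -0.06 ± 0.05 (SE, adjusted p = 0.408). SRSF8 and SRSF1 were not called in any arm at 2 h; SRSF1 wells ranged from 24.8 to 40.2 FPKM over the 2 h groups.

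**Figure D2:**
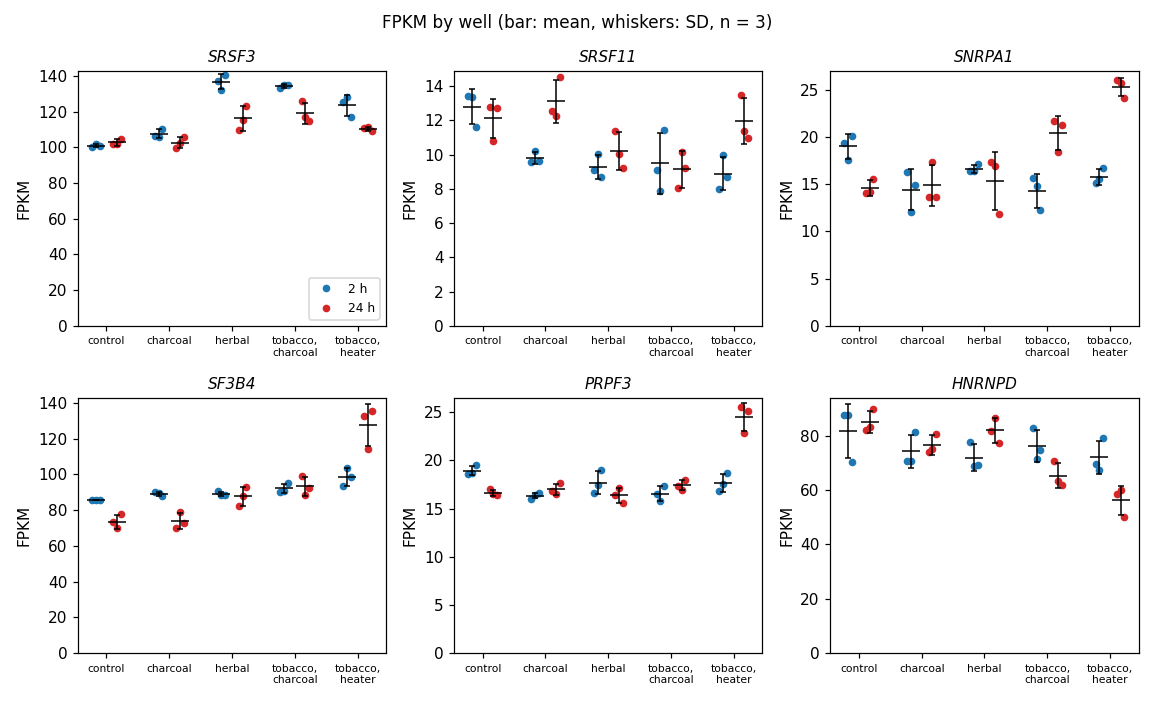
FPKM of 6 members in each well (points) by exposure, at 2 h in blue and 24 h in red; horizontal bars are means and whiskers SD of 3 wells. SRSF3 lies above its controls at 2 h after shisha, while SNRPA1, SF3B4 and PRPF3 are highest, and HNRNPD lowest, on the heater at 24 h.

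Among snRNP proteins at 2 h, SNRPB rose after every shisha arm. Its wells were at 549, 568 and 560.2 FPKM in the controls, at 601, 612 and 603 after herbal shisha, at 628, 642 and 648 after tobacco on charcoal and at 612, 633 and 676 on the heater. No shisha well overlapped the controls. The rises were 0.11, 0.19 and 0.19 on the log2 scale, with adjusted p of 0.0189, 0.00027 and 0.00027. SNRPB2, which binds a stem-loop of U2 RNA, rose in the same arms by 0.14, 0.15 and 0.18. SNRPA1, its U2 partner, went the other way: 19.4, 17.5 and 20.1 in the controls against 16.3, 12 and 14.9 after charcoal alone and 15.7, 14.8 and 12.2 after tobacco on charcoal, below the controls in each well. It fell by 0.38 ± 0.12 (SE, adjusted p = 0.0212) and 0.40, but the first call was lost after rescaling (-0.30, adjusted p = 0.0743), without charcoal replicate 2 (adjusted p = 0.144) and without control replicate 1 or 3 (0.0632 and 0.0800). The second was lost without tobacco on charcoal replicate 3 (adjusted p = 0.0831). The SNRP family split 0 higher and 2 lower of 10 after charcoal alone, 2 and 0 after herbal shisha, 3 and 1 after tobacco on charcoal and 4 and 0 on the heater, where 8.16%, 10.6%, 8.5% and 9.27% of all genes were higher. After rescaling the split was 0 and 0, 8 and 0, 7 and 1, and 8 and 0, where 11.2%, 19.1%, 17.2% and 16.8% of all genes were higher.

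LSM11, a ring protein of the U7 snRNP that processes histone mRNA ends, fell after tobacco on the heater at 2 h. Its wells were at 1.93, 1.66 and 1.26 FPKM against 3.26, 2.94 and 3.22 in the controls, 3.04, 3.37 and 3.06 after tobacco on charcoal, 3.79, 3.29 and 3.6 after herbal shisha and 3.42, 3.78 and 3.53 after charcoal alone. The heater wells lay below all the others. LSM11 fell by 0.67 ± 0.07 (SE, adjusted p = 6.11e-08), the largest called change of any member against control at 2 h, and it was 0.67 ± 0.07 higher after tobacco on charcoal than on the heater (SE, adjusted p = 2.7e-07). LSM1, which replaces LSM8 in the ring that leads mRNA to decapping, rose by 0.21 ± 0.07 (SE, adjusted p = 0.021) on the heater. LSM6, common to both rings, fell by 0.37 ± 0.13 (SE, adjusted p = 0.0315) after tobacco on charcoal, from 3.36, 4.7 and 4.61 to 2.48, 4.25 and 2.53 FPKM, with overlapping wells, and the call was lost after rescaling (adjusted p = 0.0902). No other LSM gene was called against control at 2 h.

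PRPF genes that were called at 2 h were lower, except PRPF18: 5 of 10 fell after charcoal alone, 4 after herbal shisha, 6 after tobacco on charcoal and 4 on the heater, and PRPF18, a factor of the second catalytic step, rose by 0.24 ± 0.09 (SE, adjusted p = 0.0429) after herbal shisha. Of all genes, 16.2%, 27.7%, 26.7% and 24.8% fell in these arms. After rescaling 1, 2, 1 and 3 PRPF genes were lower and 0, 1, 1 and 3 higher, with 8.06%, 19%, 17.7% and 19.7% of all genes lower. PRPF38B, a relative of the yeast factor Prp38, fell in the shisha arms: its wells held 13.8, 13.5 and 14.1 FPKM in the controls, 10.9, 10.6 and 10.6 after herbal shisha and 11.1, 10.2 and 10.9 after tobacco on charcoal. It fell by 0.34 ± 0.06 (SE, adjusted p = 0.00021) and 0.34, and after rescaling these changes were -0.25 and -0.24. On the heater it fell by 0.22, a call lost after rescaling (adjusted p = 0.0674). PRPF39, a U1-associated protein, fell by 0.28, 0.30, 0.29 and 0.34 in the 4 arms, from 4.48 ± 0.206 FPKM (SD, n = 3). After rescaling these were -0.21, -0.22, -0.21 and -0.29, with the first and the third no longer called (adjusted p = 0.0916 and 0.0545).

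In the SF3 complexes at 2 h, SF3A2 and SF3A1 fell after herbal shisha (-0.31 and -0.17) and tobacco on charcoal (-0.25 and -0.15). After rescaling SF3A2 after herbal shisha was the only one of these 4 still called (-0.22, adjusted p = 0.0118). On the heater SF3B3, the scaffold of SF3B, fell by 0.21 ± 0.04 (SE, adjusted p = 0.000113), while SF3B4 and SF3B5 rose by 0.20 and 0.20. Of the 7 SF3A and SF3B genes, 2 were called higher and 2 lower on the heater (9.27% and 24.8% of all genes). After charcoal alone 0 were called higher and 1 lower (8.16% and 16.2% of all genes). Of the hnRNP genes, HNRNPDL, an AUF1-like RNA-binding protein, was higher than control in all arms: 32, 31.9 and 31.8 FPKM in the controls and 37.2, 38.9 and 38.4 after charcoal alone, with 41.1, 42.8 and 35.7 on the heater. It rose by 0.25 ± 0.05 (SE, adjusted p = 0.000598) after charcoal alone, where it was the only called rise, 0.14 after herbal shisha, 0.14 after tobacco on charcoal and 0.31 on the heater. HNRNPC, which binds uridine tracts, was at 122, 128 and 123 in the controls and 145, 133 and 139 after herbal shisha, and rose by 0.16 ± 0.04 (SE, adjusted p = 0.00265); after tobacco on charcoal the rise was the same to 2 decimals (0.16). HNRNPM and HNRNPUL1 fell after herbal shisha (-0.26 and -0.22) and tobacco on charcoal (-0.21, lost after rescaling at an adjusted p of 0.0589, and -0.21). HNRNPD, the AUF1 protein that binds AU-rich elements, was called in none of the 4 arms at 2 h.

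At 24 h the calls on the heater were the most numerous. Of 7 SF3A and SF3B genes 5 rose and 2 fell, and PRPF3, PRPF4 and SNRPA1 rose. Of 13 hnRNP genes 8 fell, among them the pseudogenes HNRNPA1P10 and HNRNPA1P33. Charcoal alone called 1 of 52 members (9.87% of all genes called, 6.05% higher and 3.82% lower), the pseudogene HNRNPA1P10, and 0 of the 48 without copies. With median-of-ratios scaling it called 4, all lower (2 of the 48, with 5.09% of all genes lower), and without control replicate 2 or 3 it called 2. Calls among all genes went from 516 higher and 326 lower with all libraries to 343 and 213, and 342 and 213, without these wells. Herbal shisha called 11 (8 higher, 3 lower; 26.8% of all genes called, 16.5% higher and 10.4% lower). Tobacco on charcoal called 26 (15 higher, 11 lower; 44.5% of all genes called, 25.9% higher and 18.6% lower). Tobacco on the heater called 38 (21 higher, 17 lower; 63.8% of all genes called, 34.3% higher and 29.5% lower). With rescaling, herbal shisha had 6 higher and 5 lower (11.7% and 12.7% of all genes), tobacco on charcoal 9 higher and 15 lower (21.3% and 21.9% of all genes) and tobacco on the heater 17 higher and 17 lower (31.6% and 31.9% of all genes). The herbal count fell to 4 without control replicate 2, to 6 without herbal replicate 3 and to 3 when its own wells and the controls alone were fitted. Calls among all genes fell too, from 1406 higher and 883 lower with all libraries. They were 852 and 584, 866 and 554, and 892 and 573 in these fits. The median change of members on the heater was 0.001 and that of all genes 0.035. Member shares as deposited were 1.92%, 21.2%, 50.0% and 73.1% in the 4 arms, below those of all genes in the first and second and above them in the others. After rescaling the tobacco arms called 24 and 34 of 52, and members there stood closer to all genes. By family the heater calls were SF3A or SF3B 5 higher and 2 lower of 7, PRPF 6 and 2 of 10, SRSF 3 and 0 of 5, SNRP 4 and 3 of 10, LSM 2 and 2 of 7, HNRNP 1 and 8 of 13, where 34.3% of all genes rose and 29.5% fell. Family medians were 0.31, 0.16, 0.10, 0.02, -0.07 and -0.27. After rescaling the SRSF split became 0 and 0 and the SNRP split 3 and 3, and the other 4 were the same. Summed epithelial and mesenchymal marker genes were lower in the same wells, at 768 to 829 and 936 to 1013 FPKM on the heater, against 867 to 1030 and 1159 to 1249 in the 24 h controls. A lower sum of 1 of these lists was not particular to the heater. Epithelial sums were 738 to 812 after herbal shisha and 771 to 885 after tobacco on charcoal, and mesenchymal sums 1013 to 1048 after charcoal alone. Epithelial sums after charcoal alone were above the controls, at 1131 to 1208. Mesenchymal sums were 1067 to 1280 after herbal shisha, overlapping the controls, and 1100 to 1159 after tobacco on charcoal. Among mesenchymal markers on the heater, mean COL1A1 went from 138 to 47.8 FPKM and VIM from 825 to 795. The part of these marker changes in the counts of members was not tested.

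SF3B4, the SF3B subunit that contacts RNA upstream of the branch point, had the largest called rise of any member against control. Its wells were at 73.1, 69.8 and 77.5 FPKM in the 24 h controls, 69.9, 78.8 and 72.7 after charcoal alone, 82.3, 87.7 and 93.1 after herbal shisha, 99, 88.5 and 92.1 after tobacco on charcoal and 133, 114 and 136 on the heater. The shisha wells lay above all controls, and the heater wells lay above every other well. It rose by 0.25 ± 0.06 (SE, adjusted p = 0.00303) after herbal shisha, 0.34 after tobacco on charcoal and 0.78 ± 0.06 on the heater (SE, adjusted p = 1.39e-10). The SF3A complex, 3 subunits that bridge U2 to SF3B, rose as a whole on the heater: SF3A1 from 34.1, 34.5 and 36 to 44, 41.9 and 44.6 FPKM, SF3A2 from 48.2, 51.5 and 51.9 to 66.7, 62.4 and 63.9 and SF3A3 from 41, 43.4 and 42.9 to 52.5, 47.7 and 53.1. No heater well of these overlapped a control well, and the changes were 0.31, 0.34 and 0.26. SF3B6, which touches the branch point adenosine, rose by 0.36 on the heater and 0.21 after tobacco on charcoal. SF3B3 and SF3B5 fell on the heater by 0.12 and 0.16, so the subunits of SF3B did not move together. SF3B3 was called in both directions across the arms at 24 h. Its means were 29.7 FPKM in the controls, 31.9 after herbal shisha, 31.6 after tobacco on charcoal and 27.3 on the heater. SF3B1 and SF3B2 were not analysed here.

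SNRPA1, which holds U2 RNA together with SNRPB2, stood at 14, 14.2 and 15.6 FPKM in the 24 h controls and 26, 25.7 and 24.2 on the heater, with 21.7, 18.4 and 21.2 after tobacco on charcoal; both tobacco arms lay above the controls without overlap. It rose by 0.75 ± 0.12 (SE, adjusted p = 7.73e-06) on the heater and 0.46 ± 0.12 after tobacco on charcoal (SE, adjusted p = 0.0034). After herbal shisha its wells were at 17.4, 16.9 and 11.8, around the controls. SNRPB2 rose by 0.31 on the heater and by 0.14 after tobacco on charcoal, the latter lost after rescaling (adjusted p = 0.102). SNRPC, the U1 protein that helps hold the splice donor, rose by 0.20, 0.19 and 0.19 in the 3 shisha arms. Its wells were at 83.4, 78.9 and 85.5 FPKM in the controls, at 93, 94 and 98.9 after herbal shisha, at 96, 92.1 and 95.2 after tobacco on charcoal and at 93.3, 95.1 and 95.3 on the heater. Core Sm ring genes fell on the heater: SNRPD1 by 0.10, SNRPD2 by 0.16 and SNRPG by 0.20, with SNRPG at 29, 28.1 and 29.9 in the controls and 24.1, 27.1 and 24.1 on the heater. SNRPF and SNRPD3 were not called there (-0.04 and 0.07). SNRPB rose by 0.11, a call lost after rescaling (adjusted p = 0.109). SNRPN, an Sm B relative from an imprinted locus, rose after tobacco on charcoal by 0.19 and was at -0.05 on the heater, not called.

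LSM1 rose on the heater to 26.1, 23 and 27.6 FPKM from 18.5, 15.8 and 15.3, a change of 0.60 ± 0.07 (SE, adjusted p = 9.64e-08), and by 0.26 after tobacco on charcoal. LSM8, the U6 ring subunit in its place, was at 2.22, 2.03 and 2.17 in the controls and 1.36, 1.86 and 1.6 on the heater, and fell by 0.27 ± 0.06 (SE, adjusted p = 0.000426). The pair thus moved in opposite directions in the heater wells, neither overlapping the controls. LSM3 rose by 0.29 and LSM6 fell by 0.31 there. LSM11 fell by 0.20 ± 0.07 (SE, adjusted p = 0.0282) after herbal shisha and 0.17 after tobacco on charcoal. The herbal call was lost without any 1 of control replicates 1, 2 and 3 or herbal replicates 2 and 3, with adjusted p from 0.0587 to 0.114, and with these wells alone (0.0562). On the heater LSM11 was at 3.3, 3.04 and 3.38 against 3.15, 3.07 and 3.19 in the controls, a difference of 0.03 ± 0.07 (SE, adjusted p = 0.67).

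Of the tri-snRNP genes, PRPF3 and PRPF4, whose proteins bind each other on U4/U6, both rose on the heater at 24 h. PRPF3 stood at 17, 16.5 and 16.4 FPKM in the controls, 17.4, 17 and 18 after tobacco on charcoal and 25.6, 22.8 and 25.1 on the heater, and it rose by 0.53 ± 0.05 (SE, adjusted p = 4.48e-09) on the heater. After tobacco on charcoal the difference was 0.06 ± 0.05 (SE, adjusted p = 0.321). PRPF4 was at 34.2, 32.3 and 33 in the controls, at 35.2, 39.3 and 39.3 after herbal shisha, at 44.1, 38.1 and 39.2 after tobacco on charcoal and at 45.4, 41.8 and 46.1 on the heater, and it rose in each of these arms. The PRPF4 changes were 0.19, 0.28 and 0.41, the herbal one lost after rescaling (adjusted p = 0.0612). PRPF18 rose from 10.2, 8.59 and 9.53 to 15.2, 13.9 and 15.7 FPKM on the heater, by 0.61, and PRPF38B rose there by 0.21. PRPF31, whose mean lies below 1 FPKM, fell by 0.15 on the heater. PRPF39 fell in all shisha arms: its wells were at 3.81, 4.01 and 3.76 in the controls, at 3.73, 2.99 and 2.39 after herbal shisha, at 2.25, 2.69 and 2.83 after tobacco on charcoal and at 2.58, 2.64 and 2.7 on the heater. Its changes were -0.28, -0.44 and -0.42, and the herbal call was lost without control replicate 2 (adjusted p = 0.0678), without herbal replicate 3 (-0.16, adjusted p = 0.165) and with these wells alone (adjusted p = 0.151). PRPF19 was not called in any arm at 24 h.

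hnRNP genes were lower on the heater at 24 h: HNRNPD, HNRNPF, HNRNPUL1, HNRNPA0, HNRNPC, HNRNPLL and the pseudogenes HNRNPA1P10 and HNRNPA1P33 fell and HNRNPDL rose. HNRNPD, which marks AU-rich mRNA for decay, was at 82, 83.2 and 89.8 FPKM in the controls, 81.9, 86.7 and 77.5 after herbal shisha, 70.7, 63.5 and 61.8 after tobacco on charcoal and 58.4, 60.2 and 50.2 on the heater. Wells of both tobacco arms lay below the controls. It fell by 0.59 ± 0.09 (SE, adjusted p = 3.66e-06) on the heater and 0.38 after tobacco on charcoal. HNRNPF, a binder of guanine tracts, fell by 0.31 ± 0.03 (SE, adjusted p = 4.39e-08) on the heater, from 107, 109 and 107 to 84.7, 85.9 and 89.4, and fell by 0.19 after tobacco on charcoal. HNRNPA0 fell by 0.22, HNRNPC by 0.17 and HNRNPLL by 0.16 on the heater. HNRNPUL1 fell in every shisha arm, by 0.13, 0.24 and 0.27. HNRNPDL, a close relative of HNRNPD, rose by 0.25 on the heater, from 31.7, 31.4 and 34.6 to 38.8, 39.9 and 38.3. HNRNPM fell after tobacco on charcoal (-0.15) and was at 0.02 on the heater, not called. HNRNPA1P10 was at 122, 123 and 131 in the controls and 108, 109 and 105 after charcoal alone, its call there being -0.22 ± 0.04 (SE, adjusted p = 0.002). HNRNPA1 itself was not analysed here.

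Of the SR genes at 24 h, SRSF3 rose by 0.17 after herbal shisha, 0.21 after tobacco on charcoal and 0.10 on the heater, where the call was lost after rescaling (0.07, adjusted p = 0.189). SRSF11 fell after tobacco on charcoal, from 12.8, 10.8 and 12.7 to 8.03, 10.2 and 9.23 FPKM, by 0.37, while on the heater its wells at 13.5, 11.4 and 11 overlapped the controls. SRSF8 rose by 0.27 after tobacco on charcoal and 0.14 on the heater, and SRSF4 rose by 0.13 on the heater, both heater calls being lost after rescaling (adjusted p = 0.132 and 0.127).

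Between 2 h and 24 h, 8 of 52 members changed in the controls (3 higher, 5 lower; 16.9% of all genes called, 7.44% higher and 9.44% lower). HNRNPC was at 122, 128 and 123 FPKM at 2 h and 163, 166 and 167 at 24 h, a rise of 0.41 ± 0.04 (SE, adjusted p = 1.32e-07), and SF3B6 rose by 0.16 ± 0.05 (SE, adjusted p = 0.0212). SNRPA1 fell by 0.36 ± 0.12 (SE, adjusted p = 0.0413) and PRPF38B by 0.28 ± 0.06 (SE, adjusted p = 0.0048). The wells of these 4 genes did not overlap between times. SF3B4, PRPF3 and SF3A1 also fell and HNRNPA1P10 rose. The count was 4 without 2 h replicate 1 or 3 or 24 h replicate 1 or 3, and 3 without 24 h replicate 2. Calls among all genes fell in each of these fits too, from 635 higher and 805 lower. The lowest were 405 and 480, without 2 h replicate 3. The SNRPA1 call was lost without any 1 of these 5 wells (adjusted p from 0.0529 to 0.145) and without the filter (0.0686), and the SF3B6 call without 2 h replicate 1 or 3 or 24 h replicate 1 or 3 (0.0602 to 0.114).

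Adding herbal shisha to charcoal was compared directly with charcoal alone. At 2 h 18 members were called, 14 higher and 4 lower with shisha (24.4% of all genes called, 10.1% higher and 14.3% lower), and at 24 h 23, 18 higher and 5 lower (31.5% of all genes called, 16.2% higher and 15.3% lower). The member shares were thus 34.6% and 44.2%. The 2 h count fell to 9 without herbal replicate 3, and the 24 h count to 13 without herbal replicate 3 and to 14 when these wells alone were fitted. Of all genes, 512 were then higher and 852 lower at 2 h (859 and 1224 with all libraries). At 24 h these were 937 and 833, then 1064 and 918 (1381 and 1306 with all libraries). SRSF3 was 0.34 ± 0.04 higher with shisha at 2 h (SE, adjusted p = 4.28e-06). LSM5, of the U6 ring, was 0.25 higher at 2 h, a call lost without charcoal replicate 1 or herbal replicate 1 or 3 (adjusted p from 0.0513 to 0.0925) or with these wells alone (0.0572). PRPF38B was lower at 2 h (-0.29), as was SF3A1 (-0.14, lost without herbal replicate 3 at an adjusted p of 0.0501). Of the 10 SNRP genes 6 were higher with shisha at 2 h and 0 lower. At 24 h SNRPC was at 76.2, 80.2 and 78.4 FPKM after charcoal alone and 93, 94 and 98.9 with shisha, higher by 0.28 ± 0.04 (SE, adjusted p = 4.92e-06), and PRPF4 was higher by 0.28. PRPF39 was at 4.41, 4.24 and 4.71 after charcoal alone and at 3.73, 2.99 and 2.39 with shisha, a difference of -0.45; SRSF11 was different by -0.34, a call lost without charcoal replicate 3 or herbal replicate 2 or 3 (adjusted p from 0.0614 to 0.127).

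The heat source was compared within tobacco shisha. At 2 h 8 of 52 members differed, 3 higher and 5 lower on charcoal than on the heater (23.3% of all genes called, 10.6% higher and 12.7% lower), or 2 when these wells alone were fitted. Calls among all genes then went from 907 higher and 1084 lower to 246 and 323. After rescaling the split was 4 higher and 3 lower (13.1% and 9.8% of all genes). Beside LSM11, SF3B3 was 0.18 higher on charcoal, and SRSF4 and PRPF6 were at -0.30 and -0.21. With these wells alone the calls of SF3B3 and PRPF6 were lost (adjusted p = 0.0981 and 0.0538). SRSF4 wells were at 26.9, 24.9 and 24.9 FPKM on charcoal and 31.7, 31.1 and 32 on the heater, without overlap. At 24 h 31 differed, 15 higher and 16 lower on charcoal (47.8% of all genes called, 24.9% higher and 22.9% lower), or 18 when fitted alone. Calls among all genes then went from 2123 higher and 1955 lower to 1319 and 1240. PRPF3 and SF3B4 were lower on charcoal, with differences of -0.47 ± 0.05 (SE, adjusted p = 2.3e-07) and -0.45 ± 0.06 (SE, adjusted p = 2.7e-06). SNRPG and SF3B5 were higher on charcoal by 0.30 and 0.27, at 105, 116 and 115 FPKM for SF3B5 on charcoal and 90.9, 96.8 and 90.8 on the heater. HNRNPD was 0.21 higher on charcoal (adjusted p = 0.0495).

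**Figure D3:**
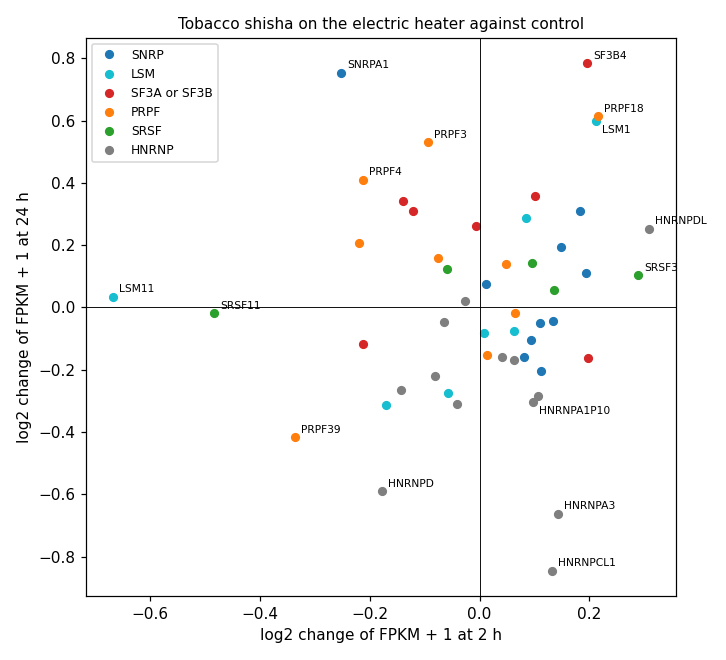
Each of the 51 points is 1 member, with its log2 change on the heater against control at 2 h on the horizontal axis and at 24 h on the vertical axis, coloured by name family. SNRPA1, PRPF3 and PRPF4 lie at upper left, SF3B4, PRPF18 and LSM1 at upper right, and most hnRNP genes below 0 at 24 h.

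Whether an exposure's change differed between times was tested as the change at 24 h minus that at 2 h. Charcoal alone called 8 members (7 higher, 1 lower; 23.2% of all genes called, 16.2% higher and 7% lower), herbal shisha 10 (7 and 3; 32.3% of all genes called, 24% higher and 8.3% lower), tobacco on charcoal 14 (9 and 5; 41.1% of all genes called, 30.3% higher and 10.8% lower) and tobacco on the heater 30 (15 and 15; 57.6% of all genes called, 34.8% higher and 22.8% lower). The member shares were 15.4%, 19.2%, 26.9% and 57.7%. The median over all genes was 0.092, 0.116, 0.132 and 0.094, and after rescaling -0.002, 0.008, 0.009 and 0.013. Rescaled, members split 2 higher and 7 lower (8.39% and 10.4% of all genes), 2 higher and 8 lower (12% and 13.8% of all genes), 3 higher and 13 lower (16.3% and 17.7% of all genes) and 11 higher and 19 lower (29% and 27.8% of all genes). Charcoal alone called 5 without its 24 h replicate 3, where calls among all genes went from 1382 higher and 597 lower to 1125 and 545. On the heater SNRPA1 differed between times by 1.01 ± 0.17 (SE, adjusted p = 2.5e-05), 0.91 relative to the median of all genes. PRPF3 and PRPF4 differed by 0.62 ± 0.07 (SE, adjusted p = 1.88e-07) and 0.62 ± 0.08 (SE, adjusted p = 4.69e-07), or 0.53 and 0.53 relative to that median, and LSM11 by 0.70 ± 0.10 (SE, adjusted p = 1.84e-06). After tobacco on charcoal PRPF4 differed by 0.45 ± 0.08 (SE, adjusted p = 7.13e-05) and SRSF4 by 0.38 ± 0.07 (SE, adjusted p = 0.00027), 0.32 and 0.25 relative to the median. After herbal shisha SF3A1 and SF3A2 differed by 0.35 ± 0.06 (SE, adjusted p = 4.75e-05) and 0.44 ± 0.09 (SE, adjusted p = 0.000782), 0.24 and 0.32 relative to the median. After charcoal alone SRSF4 differed by 0.31 ± 0.07 (SE, adjusted p = 0.00302) and PRPF6 by 0.21 ± 0.05 (SE, adjusted p = 0.00313), 0.22 and 0.12 relative to the median, and PRPF6 was not called after rescaling (0.10, adjusted p = 0.105).

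Partner genes outside the members were read from 10 lists of the same pathway. On the heater at 24 h, the catalytic core and helicases stood at 14 of 16 higher and 0 lower (median 0.27, with 0.04 for all genes), and the count was the same after rescaling. Of all genes, 34.3% were higher and 29.5% lower in this arm, and after rescaling 31.6% and 31.9%. RBM22, which contacts U6 in the active site, was at 37.1, 35.7 and 38.5 FPKM in the controls and 63.8, 54.8 and 63.5 on the heater, and BCAS2, of the Prp19 complex, at 26, 26.8 and 30.6 in the controls and at 43, 41.9 and 44.9 on the heater. Both were above the controls in each well, with changes of 0.69 ± 0.06 (SE, adjusted p = 4.28e-10) and 0.62 ± 0.07 (SE, adjusted p = 3.52e-08). Branch point recognition was at 6 of 8 higher and 1 lower, led by PUF60 (0.61) and CTNNBL1 (0.46). Assembly of the Sm ring was at 5 of 9 higher and 1 lower: PRMT5, the methyltransferase of Sm proteins, went from 32.7, 33.3 and 34.3 to 58.5, 63.8 and 60.7 FPKM, by 0.85 ± 0.08 (SE, adjusted p = 5.87e-09), and GEMIN5, which recognises snRNAs, rose by 0.66. PRMT5 also rose by 0.42 after herbal shisha and 0.63 after tobacco on charcoal. In the minor spliceosome list (3 of 5 higher and 1 lower) ZMAT5, of the U11/U12 particle, rose by 1.01 and ZMAT2, which is known from the major spliceosome, by 0.67. In the exon junction complex (3 of 4 higher and 0 lower, and 2 and 0 after rescaling) RNPS1 and CASC3 rose by 0.34 and 0.28. The snRNP partners split evenly (2 of 8 higher and 2 lower): SNRNP27, of the tri-snRNP, rose by 0.48, and SNRNP200, the helicase that unwinds U4/U6, fell by 0.29. Other splicing regulators were at 3 of 15 higher and 4 lower (2 and 4 after rescaling), with NONO, a paraspeckle protein, at -0.26. At 24 h charcoal alone called 2 of 16 catalytic genes higher, herbal shisha 6 and tobacco on charcoal 8, and none of these 3 arms called one lower, where 6.05%, 16.5% and 25.9% of all genes rose. After rescaling these were 1, 4 and 6, with 4.88%, 11.7% and 21.3% of all genes. At 2 h the catalytic list went mostly the other way as deposited. In the 4 arms 6, 4, 8 and 4 of 16 were lower, with 16.2%, 27.7%, 26.7% and 24.8% of all genes. Higher were 0, 2, 2 and 3 of 16, with 8.16%, 10.6%, 8.5% and 9.27% of all genes.

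**Figure D4:**
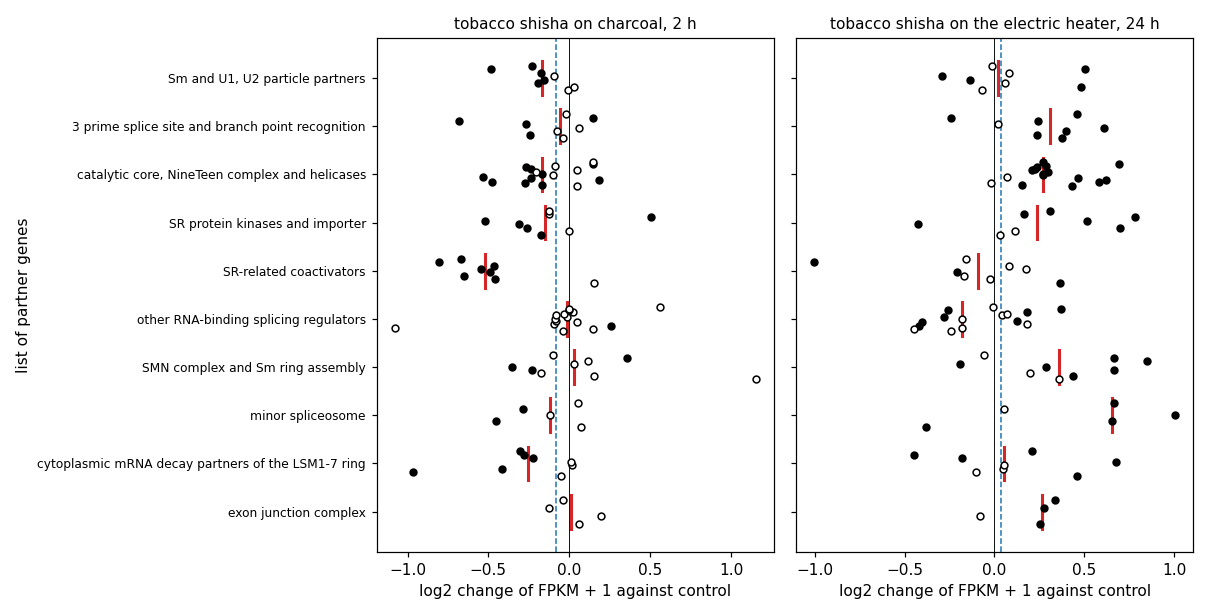
Log2 change against control of each partner gene by list, after tobacco on charcoal at 2 h (left) and on the heater at 24 h (right); filled points passed an adjusted p of 0.05, red bars are list medians and the dashed line is the median of all genes. SR-related coactivators lie to the left at 2 h, with 7 of 8 filled, and the catalytic core lies to the right at 24 h, with 14 of 16 filled.

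At 2 h the SR-related coactivators and the decay partners of the LSM ring held falls and no rise as deposited. This was not particular to them: the snRNP partners were lower for 1, 3, 5 and 1 of 8 genes and higher for 0. The minor spliceosome list was lower for 2, 1, 2 and 1 of 5 and higher for 0. SR-related coactivators were lower for 3, 6, 7 and 6 of 8 genes in the 4 arms and higher for 0, where 16.2%, 27.7%, 26.7% and 24.8% of all genes were lower. After rescaling 1, 6, 7 and 3 were lower, with 8.06%, 19%, 17.7% and 19.7% of all genes. The list medians were -0.22, -0.37, -0.52 and -0.30. NKTR, a cyclophilin with an SR domain, was at 8.3, 7.99 and 8.38 FPKM in the 2 h controls and 4.38, 3.86 and 4.66 after tobacco on charcoal, a change of -0.80 ± 0.10 (SE, adjusted p = 8.43e-07). It was also lower at 24 h in the shisha arms (-0.32 after herbal shisha and -0.61 after tobacco on charcoal), with 3.53, 3.7 and 3.7 FPKM on the heater against 8.28, 8.02 and 8.65 in the controls. RBM5 fell by 0.26, 0.37, 0.49 and 0.60 at 2 h. Decay partners of the LSM ring were lower for 4, 5, 5 and 6 of 8 and higher for 0. After rescaling 2, 4, 5 and 6 were lower and 1, after charcoal alone, was higher. DCP2, the decapping enzyme, stood at 6.19, 6.59 and 6.06 in the controls and 3.76, 3.76 and 2.95 on the heater, a change of -0.70. DCP1B, its cofactor, was at 5.09, 5.13 and 5.16 in the controls, at 1.81, 2.4 and 2.17 after charcoal alone, at 2.12, 1.93 and 1.74 after herbal shisha, at 1.74, 2.23 and 2.47 after tobacco on charcoal and at 2.63, 3.67 and 4.33 on the heater, below the controls in every exposed well. DCP1B was singled out after its values were seen. At 24 h EDC3, an enhancer of decapping, rose by 0.68 ± 0.05 (SE, adjusted p = 5.94e-11) on the heater.

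In the list of SR protein kinases and their importer, DYRK2, a dual-specificity kinase, was at 3.96, 4.19 and 3.87 FPKM in the 2 h controls and rose after charcoal alone (0.69), herbal shisha (0.61) and tobacco on charcoal (0.51). On the heater it was at 4.11, 4.24 and 2.98 at 2 h, a difference of -0.08 ± 0.09 (SE, adjusted p = 0.531), and at 7.94, 6.6 and 9.2 at 24 h, a rise of 0.78 ± 0.09 (SE, adjusted p = 5.12e-08). CLK3 rose on the heater at 24 h from 9.17, 8.99 and 9.26 to 16.4, 12.6 and 17.9, by 0.70 ± 0.08 (SE, adjusted p = 6.98e-08). The kinase list stood at 5 of 8 higher and 1 lower in that arm, with 4 higher and 1 lower after rescaling, where 34.3% and 29.5% of all genes were higher and lower (31.6% and 31.9% rescaled). MBNL2, an exon regulator of the muscleblind family, was at 31.7, 31.3 and 34.4 in the 2 h controls and 50.2, 49.6 and 50 after charcoal alone, a rise of 0.61 ± 0.09 (SE, adjusted p = 2.19e-05), and fell by 0.42 on the heater at 24 h.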

How the data were processed

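The authors deposited FPKM values per library, with RefSeq accessions and gene names. The unit comes from the name under which the series table was deposited and from the values. HISAT2 2.1.0, StringTie 1.3.4d and hg38 are named in the submitters' processing notes, and the strand setting is not given in the sources used here. Low genes were checked for steps of 1 read, taking each gene's lowest value above 0 over all libraries as the step. A median of 13.3% of values lay within 0.05 of a whole multiple, with 10% for evenly spread values. The lowest value always matches, and steps that differ between libraries of unlike depth would be missed. The check therefore cannot decide whether such steps were present. Depth was not recovered, and no count test or counting interval was used. Of 27 gene names turned into dates, 26 were restored from their accessions.

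Genes at 1 FPKM or more in 3 or more of 30 libraries (8531) were fitted with limma 3.58.1 in R 4.3.3, with a mean-variance trend, on log2(FPKM + 1). The fit had 10 group means, 20 residual degrees of freedom and Benjamini-Hochberg adjustment over all 8531. The code was tested on simulated data.

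The members and lists were chosen with earlier results of these data known. Named genes were the 2 largest called rises and falls with non-overlapping wells in each comparison, the 2 smallest p-values for each difference between times, the highest mean of each family and the 2 smallest p-values of each partner list. Other members are given to complete their family. For 1 member, counted among the 52, values are not reported here. Alternatives were median-of-ratios scaling, a pseudocount of 0.1, no filter, the compared groups alone, a replicate block and leaving out each library.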

Additional observations from a re-analysis of the deposited data

Results flagged for a closer look

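For 8 pairs of a member and an exposure, the 2 members with the smallest p in each exposure, the change at 24 h differed from that at 2 h by limma's test of the difference. Each value is the 24 h change minus the 2 h change on the log2(FPKM + 1) scale. After charcoal alone PRPF6, a bridge within the tri-snRNP, differed by 0.21 ± 0.05 (SE, adjusted p = 0.00313), from a 2 h change of -0.21 to a 24 h change of 0.00. After median-of-ratios scaling this difference was 0.10 and no longer called (adjusted p = 0.105). SRSF4 differed by 0.31 ± 0.07 (SE, adjusted p = 0.00302), from -0.16 to 0.16, with wells on opposite sides of the controls at the 2 times, although the 24 h change did not pass (adjusted p = 0.0592).

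After herbal shisha SF3A2 differed by 0.44 ± 0.09 (SE, adjusted p = 0.000782), from -0.31 to 0.13. SF3A1 differed by 0.35 ± 0.06 (SE, adjusted p = 4.75e-05), from a fall of -0.17 to a rise of 0.18, both called. Its control mean itself went from 38.0 FPKM at 2 h to 34.9 at 24 h, a called fall, and its herbal mean from 33.7 to 39.8. After tobacco on charcoal PRPF4 differed by 0.45 ± 0.08 (SE, adjusted p = 7.13e-05), from -0.17 to 0.28, and SRSF4 by 0.38 ± 0.07 (SE, adjusted p = 0.00027), from -0.36 to 0.03.

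On the heater PRPF4 differed by 0.62 ± 0.08 (SE, adjusted p = 4.69e-07), from -0.21 to 0.41, and PRPF3 by 0.62 ± 0.07 (SE, adjusted p = 1.88e-07), from -0.09 to 0.53. In the controls mean PRPF3 went from 18.9 FPKM at 2 h to 16.6 at 24 h, a called fall, and mean PRPF4 from 30.2 to 33.2. In all 8 pairs the later change was the higher one, and so was the median over all genes, by 0.092, 0.116, 0.132 and 0.094 in the order of the exposures. The 4 exposures share the control wells of each time, so these are not separate lines of evidence.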

How the results depend on the processing

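None of the 56 changes of named members reversed in sign under the alternatives run, and 42 kept their call under every one. A pseudocount of 0.1 changed none of the 56 calls, median-of-ratios scaling lost 3, the compared groups alone 5, no filter 1 (these last 2 for named members were chosen after seeing the data) and leaving out 1 library lost a call 32 times and kept it 352 times. Median-of-ratios scaling turned the balance of member calls from 1 higher and 10 lower to 3 and 1 for charcoal alone, 7 and 10 to 20 and 7 for herbal shisha and 6 and 14 to 18 and 5 for tobacco on charcoal at 2 h, from 15 and 11 to 9 and 15 for tobacco on charcoal at 24 h, and for differences between times from 7 and 1 to 2 and 7 (charcoal alone), 7 and 3 to 2 and 8 (herbal shisha) and 9 and 5 to 3 and 13 (tobacco on charcoal). It moved the count of members called to 4 after charcoal alone at 2 h, 27 after herbal shisha at 2 h and 4 after charcoal alone at 24 h. Without the pseudogenes and HNRNPCL1, a choice made after seeing the data, limma called 0 after charcoal alone at 24 h on the values as deposited. With the compared groups alone the counts were 20 for charcoal alone at 2 h, 3 for herbal shisha at 24 h, 2 for tobacco on charcoal against the heater at 2 h and 18 at 24 h, and 14 for herbal shisha against charcoal alone at 24 h. These fits hold fewer samples, and calls among all genes moved in the same direction as those of members in each of these comparisons.

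With 1 library left out, counts at 2 h ranged from 6 to 9 for charcoal alone, 13 to 18 for herbal shisha, 17 to 20 for tobacco on charcoal and 14 to 19 on the heater. At 24 h they ranged from 1 to 2, 4 to 13, 18 to 26 and 32 to 35. They were 3 to 6 for the controls between times. Herbal shisha against charcoal alone gave 9 to 19 at 2 h and 13 to 24 at 24 h, and tobacco on charcoal against the heater gave 6 to 9 and 21 to 31. Differences between times gave 5 to 9, 8 to 13, 11 to 15 and 24 to 30 in the order of the exposures. Calls among all genes also moved in these fits.

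Replicate numbers from the titles were not taken to pair the wells: the deviations of same-numbered wells correlated at r from -0.217 to 0.231, over 0.1 in 10 of 135 pairs. A hint of pairing in the data, though not in the design, is that 20 of 30 libraries correlated best with their own number, where an even split over the numbers gives 10. With a replicate block the counts were 12, 19, 20 and 18 at 2 h and 1, 12, 25 and 37 at 24 h, with none of the 56 named calls changed. FPKM without depth limits what can be said of the lowest members, such as PRPF31 and PRPF40B, and 3 wells a group limit small changes.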
